A study of Mus musculus with 4 samples.

Results

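The 8 milk protein genes Csn1s1, Csn1s2a, Csn1s2b, Csn2, Csn3, Wap, Lalba and Glycam1 were followed in RNA of whole mammary fat pad (MFP) from aged and young mice. They were taken by gene symbol from a table of 55487 genes, in which each of the 8 has 1 row. The table holds raw counts of sequencing reads per gene for 4 samples of total RNA depleted of ribosomal RNA, 2 from aged mice (replicates 1 and 2) and 2 from young mice (replicates 1 and 2). The animals are labelled c57b/6j (C57BL/6J), with ages of 14 months for the aged group and 8 weeks for the young group, and no transgene or treatment is named for either. Their sex is not labelled, and the methods of the study name females for the mice that it injected with tumour cells. The fat pad was lysed whole, so that each library holds RNA of adipocytes, mammary epithelium, vessels, immune cells and any other tissue taken with it. Whether the mice had borne litters, and the stage of the oestrous cycle, are not given in the sources used here.

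Milk proteins are made by the luminal epithelial cells of the mammary gland. Caseins form the micelles of milk, whey acidic protein (Wap) and alpha-lactalbumin (Lalba) belong to the soluble whey, and all are best known as products of pregnancy and lactation, when prolactin acts through its receptor, the kinase JAK2 and the transcription factor STAT5. A virgin gland is known to make some of these RNAs at low level. Glycam1, a mucin-like glycoprotein of milk whey, has another known source in the high endothelial venules of lymph nodes, where it carries sugars bound by L-selectin, and a mammary fat pad can hold a lymph node.

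The genes lie in 4 places of the mouse genome (GRCm38, GENCODE M21). All 5 casein genes sit on chromosome 5 within 266 kb, from 87666208 to 87932665, in the order Csn1s1 (plus strand), Csn2 (minus strand), Csn1s2a, Csn1s2b and Csn3 (plus strand). Wap is on chromosome 11 (6635482 to 6638637, minus strand). Lalba (98480400 to 98482721) and Glycam1 (103562759 to 103565081) are both on the minus strand of chromosome 15. All 8 are protein-coding genes. Csn3 lies inside the antisense gene 1700066N21Rik, which has 0 counts in every sample and shares 0 exon bases with it, and no other member overlaps an annotated gene. Of the 31-base stretches of the members' transcripts, between 0% and 2.32% (the last in Csn3) also occur in transcripts of other genes.

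The RefSeq table of promoters (GRCm38.p6) held a window for 6 of the 8 genes, without Csn3 and Csn1s2b. The letters TTCNNNGAA, the core of the motif bound by STAT5, which reads the same on both strands, were searched in the 250 bases before each RefSeq start. Shown here, 5′ to 3′ in the direction of the gene, are the windows of the 3 tested genes with both young samples above both aged samples (Csn1s1, Csn2 and Lalba) and of Glycam1, with the matches in capitals.
Csn1s1, chr5:87665958-87666207, plus strand: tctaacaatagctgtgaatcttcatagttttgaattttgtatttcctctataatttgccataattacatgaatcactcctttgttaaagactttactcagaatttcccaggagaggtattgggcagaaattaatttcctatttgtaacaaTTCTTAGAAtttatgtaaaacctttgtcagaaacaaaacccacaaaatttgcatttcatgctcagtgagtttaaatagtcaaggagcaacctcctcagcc
Csn2, chr5:87699426-87699675, minus strand: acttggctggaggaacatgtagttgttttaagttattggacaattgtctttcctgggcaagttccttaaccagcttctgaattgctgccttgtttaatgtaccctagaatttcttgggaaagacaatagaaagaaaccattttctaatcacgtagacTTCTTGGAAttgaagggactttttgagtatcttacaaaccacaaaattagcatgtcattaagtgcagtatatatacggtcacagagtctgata
Lalba, chr15:98482684-98482933, minus strand: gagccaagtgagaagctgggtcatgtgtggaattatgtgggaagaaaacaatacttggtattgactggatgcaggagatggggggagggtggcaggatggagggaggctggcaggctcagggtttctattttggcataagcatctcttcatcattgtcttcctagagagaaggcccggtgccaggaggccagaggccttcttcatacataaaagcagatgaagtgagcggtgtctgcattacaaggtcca
Glycam1, chr15:103565082-103565331, minus strand: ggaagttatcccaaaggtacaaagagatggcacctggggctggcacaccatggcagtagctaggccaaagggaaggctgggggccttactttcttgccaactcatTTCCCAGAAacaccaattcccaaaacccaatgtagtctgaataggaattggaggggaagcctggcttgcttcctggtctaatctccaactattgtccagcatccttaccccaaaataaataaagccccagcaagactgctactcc
Csn1s1 has the match TTCTTAGAA from base -100 to -92 counted from the start, Csn2 has TTCTTGGAA from -93 to -85, and Glycam1 has TTCCCAGAA from -145 to -137. GENCODE starts Csn2 at 87699630 and RefSeq at 87699425, so the Csn2 match lies inside the gene as GENCODE draws it. The starts of Lalba, Csn1s2a and Wap also differ between RefSeq and GENCODE. The windows of Lalba, Csn1s2a and Wap hold no match. Of all 32851 RefSeq windows of this length, 7.02% hold one. A match is a string of letters and not a measured binding site.

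Library totals ran from 68803304 to 98402403 counts. Values are given as counts and as CPM, the count for every 1000000 counts of the library after TMM scaling. A floor of 3 counts was used, the limit that a count of 0 allows, and it lies at 0.0337 to 0.0406 CPM depending on the library, for counting error only. As fewer cells of a type and less RNA per cell cannot be told apart in bulk tissue, any difference given here may be either. The ages were compared over 22485 genes with the quasi-likelihood test of edgeR, and p-values were adjusted by the Benjamini-Hochberg method. The test called 0 genes (0%) at an adjusted p under 0.05, while 10.5% of the genes had an unadjusted p under 0.05. With 2 samples against 2, no exact permutation test of a single gene can give a p below 0.333. The samples do not differ by age alone. Young replicate 1 had the lowest CPM of the 4 samples for all 16 luminal epithelial genes listed. It had the highest for all 15 lymphocyte genes and all 10 proliferation genes. The shares of all genes lowest or highest in that library were not counted. The 10 skeletal muscle genes summed to 38500 and 61200 CPM in aged MFP against 9950 and 13900 CPM in young MFP. DESeq2 called 8 of these 10 higher in aged MFP, a direction in which it called 3.03% of all its genes, and edgeR called 0. The 9 adipocyte genes, which mark the tissue named in the labels, summed to 14100 and 11400 CPM in aged MFP against 9190 and 9460 CPM in young MFP. For 8 of the 9, each aged sample exceeded each young sample, an order shown by 23.3% of all genes tested, and DESeq2 called 1 higher. The genes with the most distant estimates on these lists (log2 fold change of aged over young MFP from edgeR, 0 called) were Myh2 and Myh1 (8.04 and 3.13, myosins of muscle), Lep and Adipoq (1.20 and 1.00, hormones of adipocytes), Bub1 and Birc5 (-2.05 and -1.96, of mitosis) and Ccr7 and Cr2 (-4.98 and -4.15, lymphocyte receptors).

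**Figure D1:**
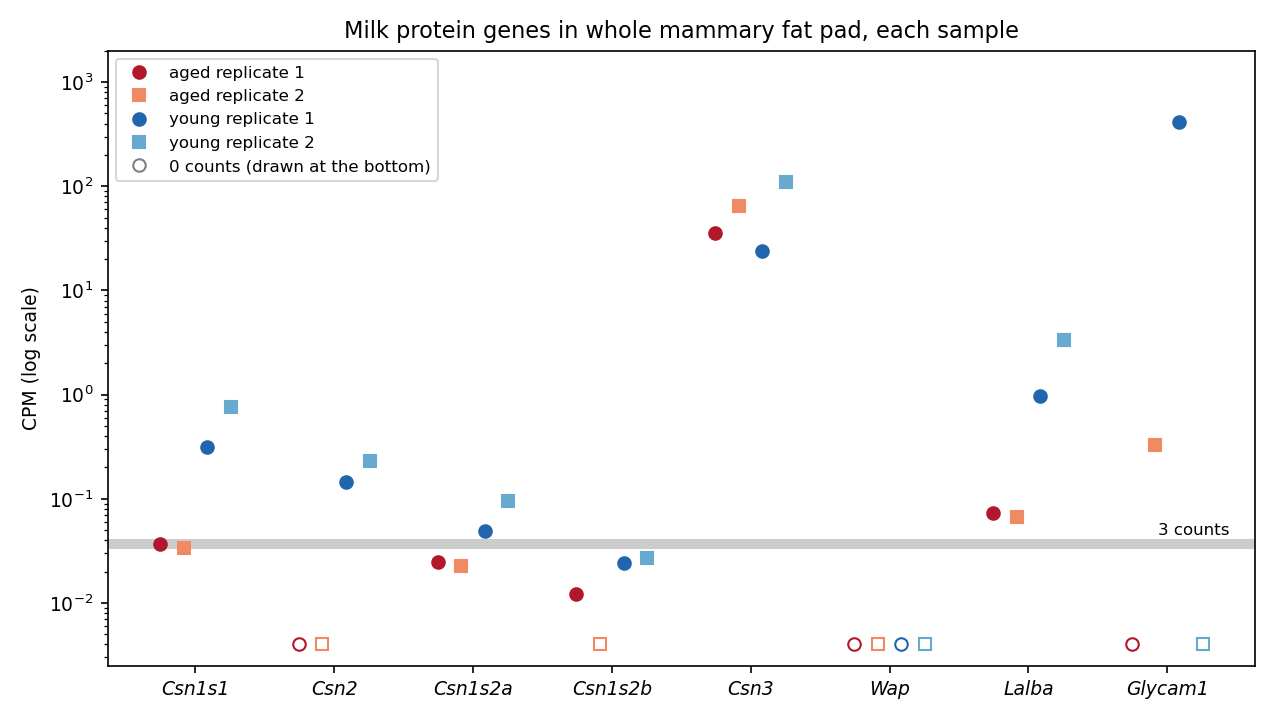
CPM of the 8 milk protein genes (log scale) in each of the 4 MFP samples, with filled points for measured values, open points for 0 counts and a grey band at the CPM of 3 counts. Csn1s1, Csn2 and Lalba are higher in both young samples than in both aged samples, Csn3 overlaps between the ages, and Glycam1 is at 418 CPM in young replicate 1 alone.

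Of the 8 genes, 5 had enough counts to be tested (Csn1s1, Csn2, Csn3, Lalba and Glycam1). Csn1s2a and Csn1s2b had too few counts and Wap had 0 in all 4 samples. edgeR called 0 of the 5. In 3 of them (Csn1s1, Csn2 and Lalba) both young samples were above both aged samples, an order shown by 22.8% of all genes tested, and the same 3 had an unadjusted p under 0.05. Each of these 3 passed the filter on low counts through the young samples only, so that a difference was required of them by the filter and their number supports nothing. DESeq2, the tool named in the methods of the study, gave an adjusted p to 4 of the members and called 2 of them, Csn1s1 and Lalba, lower in aged MFP. It called 0.642% of all its genes in that direction.

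Lalba, the subunit that turns a galactosyltransferase into lactose synthase, showed the clearest separation. It had 6 counts in aged replicate 1, 6 in aged replicate 2, 79 in young replicate 1 and 247 in young replicate 2. Both aged samples were thus close to the floor, and the young samples, although well above them, differed from each other. The aged pair averaged 0.0704 ± 0.00424 CPM (SD, n = 2) and the young pair 2.15 ± 1.68 CPM (SD, n = 2). The pooled counts were 29.8 times as high in young as in aged MFP (95% exact interval 16.8 to 58.2, which covers counting error only). On the log2 scale edgeR put aged relative to young MFP at -4.91 (SE 0.84), with an adjusted p of 0.36. DESeq2 gave -4.94 with an adjusted p of 5.38e-06, and over all alternatives the adjusted p of Lalba ran from 5.38e-06 to 0.976.

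Csn1s1, which encodes alpha-s1-casein, had 3 counts in each aged sample, 26 in young replicate 1 and 56 in young replicate 2. The aged samples were at the floor and both young samples were above it. Csn1s1 averaged 0.0352 ± 0.00212 CPM over the aged pair (SD, n = 2) and 0.538 ± 0.312 CPM over the young pair (SD, n = 2). The ratio of pooled counts, young over aged, was 15 (95% exact interval 6.6 to 42 for counting error). The edgeR estimate was -3.88 on the log2 scale (SE 0.68), again at an adjusted p of 0.36, and DESeq2 gave an adjusted p of 0.0107, in a range over the alternatives from 0.0107 to 0.976.

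Csn2, which encodes beta-casein and lies next to Csn1s1 on the opposite strand, was not detected in aged MFP, with 0 counts in both samples. It had 12 counts in young replicate 1 and 17 in young replicate 2. Against a floor of 3 counts per aged library, Csn2 was at least 5.35-fold higher in young MFP, where it was at 0.188 ± 0.0594 CPM (SD, n = 2). The adjusted p was 0.37 in edgeR's test and DESeq2 gave none. Since the aged samples hold no counts, the fitted fold change of Csn2 depends on the prior count and is not a bound.

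The remaining caseins of the cluster and Wap were at or near the floor at both ages. Csn1s2a (gamma-casein of the mouse) had 2 counts in each aged sample, 4 in young replicate 1 and 7 in young replicate 2. Its pooled ratio of young over aged was 3.01, with an exact 95% interval from 0.893 to 13 that includes equal levels. Csn1s2b (delta-casein) had between 0 and 2 counts in every sample, and no fold is given. Wap, a major whey protein of rodent milk, had 0 counts in all 4 samples, which allows up to 0.0406 CPM in the shallowest library. A difference in these 3 genes was not detectable at this depth.

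Csn3 encodes kappa-casein, which keeps casein micelles from clotting. Unlike the other caseins it was well expressed at both ages, with 2928 counts in aged replicate 1, 5769 in aged replicate 2, 1946 in young replicate 1 and 8165 in young replicate 2. The highest and the lowest value both came from young mice, and the aged samples lay between them. The averages were 50.3 ± 20.5 CPM for the aged pair (SD, n = 2) and 67.2 ± 61.4 CPM for the young pair (SD, n = 2). With edgeR the log2 fold change was -0.42 (SE 0.80) and its adjusted p 0.84, so the difference between the ages was smaller than the spread within the young group. The sign was set by young replicate 2, without which the log2 fold change was 1.09, while without young replicate 1 it was -1.14. Among the genes with counts, Csn3 ranked 1608th in young replicate 2 and 7482nd in young replicate 1.

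Csn3 held most milk protein counts other than those of Glycam1. Its share of them was 99.6% (95% Wilson interval 99.3 to 99.8) in aged replicate 1 and 99.8% (99.7 to 99.9) in aged replicate 2. In young replicate 1 it was 94.1% (93.0 to 95) and in young replicate 2 it was 96.1% (95.7 to 96.5). The intervals of the aged and young samples do not overlap, for counting error only. They mainly restate the counts of Lalba, Csn1s1 and Csn2 given above and add no further difference between the ages. These are shares of counts, and Csn3 has longer exons than Lalba. Of the summed CPM per kb of merged exons, Csn3 held 98.7% and 99.4% in the aged samples, 81.0% in young replicate 1 and 85.5% in young replicate 2. Per kb of the longest coding transcript, the shares in young MFP were 90.0% and 93.1%. The counts outside Csn3 numbered 12 and 11 in aged MFP against 123 and 329 in young MFP. Lalba gave 6 of them in each aged sample, 79 in young replicate 1 and 247 in young replicate 2. The 7 genes together reached 35.9 and 64.9 CPM in aged MFP against 25.2 and 115 CPM in young MFP, a total that overlapped between the ages and followed Csn3.

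Levels of different genes were compared per kb of merged exons. On that scale, in levels of CPM per kb, Csn3 was at 8.62 and 15.6 in aged MFP against 5.71 and 26.6 in young MFP. Lalba came next, with 0.0951 and 0.0874 in aged MFP against 1.25 and 4.34 in young MFP. Csn1s1 was at 0.00587 and 0.00539 in aged MFP against 0.0507 and 0.121 in young MFP. Glycam1 aside, the order in young MFP was Csn3, then Lalba, then Csn1s1, with no overlap between neighbours. Csn2 (0.0211 and 0.0332) and Csn1s2a (0.0139 and 0.0271) came after them and overlapped, and Csn1s2b was at the floor. In the aged samples, the genes below Lalba had 3 counts or fewer and could not be ordered. The level of Csn3 was 90.6 and 179 times that of Lalba in the aged samples and 4.57 and 6.14 times in the young samples. Merged exons of the caseins include retained introns in the annotation. Per kb of the longest coding transcript, the same ratios were 236 and 464 in aged MFP against 11.9 and 16 in young MFP, so the order of Csn3 and Lalba was the same and the gap was wider.

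Luminal epithelium, the milk-making cells and their ductal relatives, was followed by Krt8, Krt18 and Epcam, 2 keratins and an adhesion protein. Krt18, for example, was at 390 and 365 CPM in aged MFP against 220 and 471 CPM in young MFP. None of the 3 passed the test (adjusted p from 0.844 to 0.906 in edgeR), and each had its lowest and its highest CPM in a young sample. Of the 16 luminal genes listed, 11 had a higher and 5 a lower estimate in aged MFP with 0 called, at a median log2 fold change of 0.16 beside -0.04 over all genes tested. The 16 genes summed to 2730 and 2420 CPM in aged MFP against 1440 and 3450 CPM in young MFP.

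Per 100000 counts of Krt8, Krt18 and Epcam together, Lalba had 8.73 and 8.48 counts in aged MFP against 178 and 309 counts in young MFP. Csn1s1 had 4.36 and 4.24 counts in aged MFP against 58.7 and 70.0 in young MFP on the same scale, and Csn2 had 0 in both aged samples against 27.1 and 21.3 in young MFP. The distance between the young replicates was smaller on this scale than in CPM for all 3 genes, and the ratio of young over aged was 28.3 for Lalba and 15 for Csn1s1. Csn3 had 4260 and 8160 counts in aged MFP against 4400 and 10200 in young MFP, which overlapped as they did in CPM. These ratios are descriptions without a test, per luminal counts and not per milk-making cell.

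**Figure D2:**
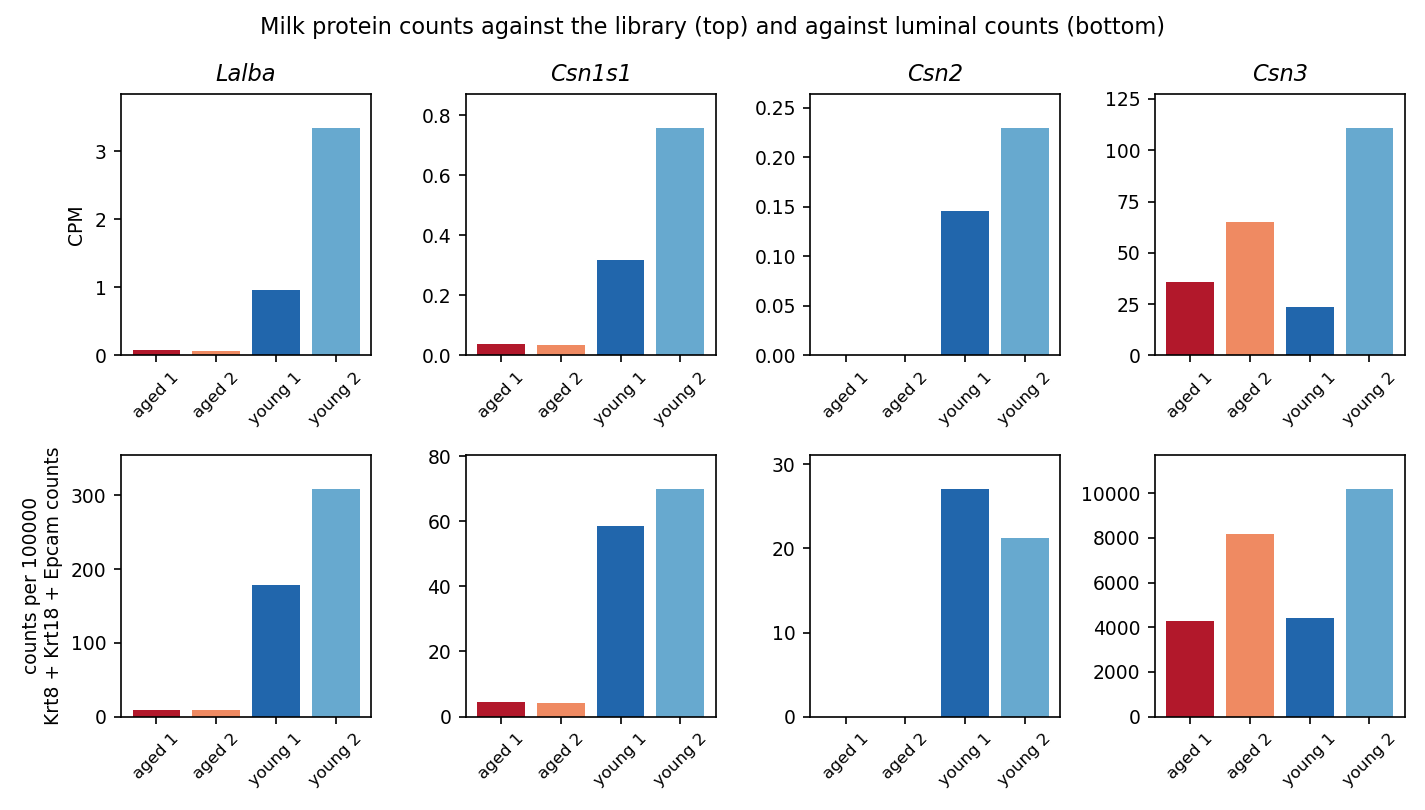
Lalba, Csn1s1, Csn2 and Csn3 in each sample, as CPM in the upper row and as counts per 100000 counts of Krt8, Krt18 and Epcam in the lower row, with 1 bar per sample on axes that start at 0. Lalba, Csn1s1 and Csn2 are higher in both young samples on either scale, while Csn3 runs from 4260 to 10200 in the lower row with overlap between the ages.

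Glycam1 did not go with the other milk proteins. It had 34255 counts in young replicate 1 (418 CPM), where it was the 192nd most abundant gene, and 0 counts in young replicate 2, the sample with most Lalba and Csn3. In the aged samples it had 0 counts in replicate 1 and 29 counts (0.326 CPM) in replicate 2. A single library thus held almost all Glycam1 reads, and the ages overlapped. The edgeR estimate of -10.28 on the log2 scale (SE 4.36, adjusted p = 0.501) rests on young replicate 1, and without it the value was 6.76.

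Several genes of lymph node venules were highest in the same library. Chst4, the sulfotransferase that modifies L-selectin ligands in high endothelial venules, had 402 counts in young replicate 1, 1 count in aged replicate 2 and 0 in the others. Of the 9 venule genes listed, 4 (Chst4, Fut7, Madcam1 and Gcnt1) were highest in young replicate 1. The share of all genes highest in that library was not counted. Ackr1, Enpp2, Sele and Selp were not, and Ccl21a had 0 counts throughout. Summed over the list, these genes ranged from 198 to 259 CPM in aged and from 78.6 to 160 CPM in young MFP, a sum led by Enpp2. Fut7, a fucosyltransferase of the same pathway, was at 4.16 CPM in young replicate 1 and at most 0.281 CPM elsewhere, and Madcam1, an adhesion molecule for lymphocytes, at 2.13 CPM and at most 0.393 CPM elsewhere.

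The 15 lymphocyte genes summed to 12.8 CPM in aged replicate 1, 119 in aged replicate 2, 1300 in young replicate 1 and 7.06 in young replicate 2. The samples had the same order by lymphocyte genes as by Glycam1, as far as its 0 counts allow. Their ratio was not constant. From aged replicate 2 to young replicate 1 the lymphocyte sum was 10.9 times as high and Glycam1 1280 times. Per 1000 lymphocyte counts, Glycam1 had 322 counts in young replicate 1 and 2.73 in aged replicate 2, and the absence of counts allows up to 2.87 in aged replicate 1 and 5.76 in young replicate 2. Luminal RNA was lowest in young replicate 1, at a summed 1440 CPM beside 2420 to 3450 CPM in the other samples. The part of lymph node tissue in the Glycam1 counts was not tested.

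**Figure D3:**
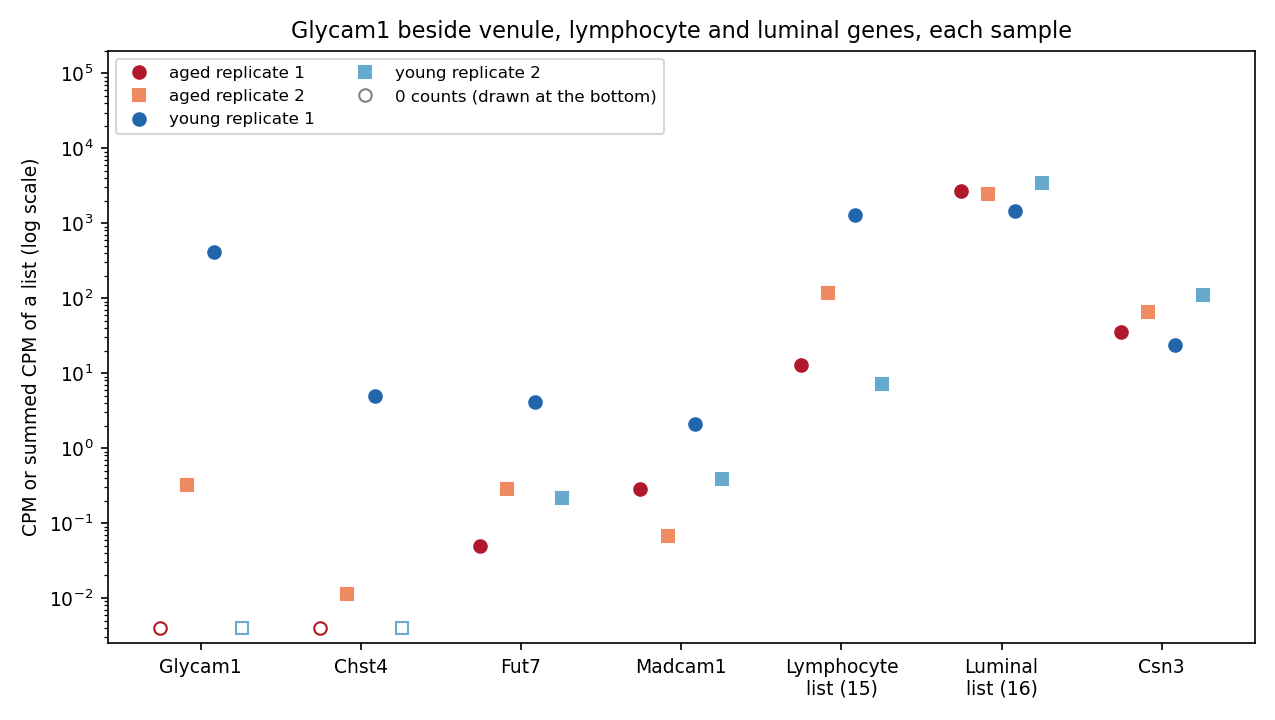
CPM of Glycam1, of the venule genes Chst4, Fut7 and Madcam1 and of Csn3, and summed CPM of the lymphocyte and luminal lists, in each sample on a log scale with open points for 0 counts. Young replicate 1 is highest for Glycam1, the 3 venule genes drawn and the lymphocyte sum of 1300 CPM. It is lowest for the luminal sum of 1440 CPM and for Csn3. Of the listed venule genes not drawn, Gcnt1 was also highest in that library, while Ackr1, Enpp2, Sele and Selp were not.

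The genes of prolactin signalling showed no difference by age that passed the test. Prlr, the prolactin receptor, was at 1130 and 854 CPM in aged MFP against 543 and 1430 CPM in young MFP. Stat5a was at 142 and 105 CPM in aged MFP against 139 and 223 CPM in young MFP, and Elf5, a transcription factor of milk-making luminal cells, at 48.9 and 51.9 CPM in aged MFP against 21.3 and 58.8 CPM in young MFP. All 3 overlapped between the ages, with adjusted p-values from 0.544 to 0.994 in edgeR. Of the 20 genes of this list, 13 had a higher and 7 a lower estimate in aged MFP, at a median log2 fold change of 0.27, and 0 were called by edgeR or DESeq2. Not all of the list overlapped. For 8 of the 20, even the lower aged CPM exceeded the higher young CPM, beside 23.3% of all genes tested. The reverse order held for 2 of the 20, beside 22.8% of all genes tested. Socs1, a feedback inhibitor of JAK kinases, and Erbb4, a receptor kinase, had the most distant estimates (-1.44 and 1.13). Erbb4 was at 21.6 and 13.1 CPM in aged MFP against 4.30 and 11.5 CPM in young MFP. Socs1 was at 12.4 CPM in young replicate 1, the library rich in lymphocyte genes, and between 2.48 and 3.01 CPM in the others.

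Among genes of the response to ovarian hormones, 7 of 10 had a higher and 3 a lower estimate in aged MFP, with a median of 0.32. Either tool called 0 of the 10, beside 0% of all genes for edgeR and 3.03% higher and 0.642% lower for DESeq2. Both aged samples exceeded both young samples for 3 genes and were below them for 2, beside 23.3% and 22.8% of all genes tested. Areg is the growth factor amphiregulin, a known target of oestrogen in the gland. It was at 41.5 and 18.6 CPM in aged MFP against 57.2 and 239 CPM in young MFP. Young replicate 2 was highest, as for Lalba, Csn1s1, Csn2 and Csn3. The summed luminal genes were also highest in that library (3450 CPM), so this peak is not particular to Areg. The edgeR estimate of Areg was -2.30 (SE 0.84, adjusted p = 0.476). Tnfsf11, which encodes RANKL, was at 2.71 CPM in young replicate 1 and at most 0.366 CPM elsewhere.

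Other components of milk were read from 2 further lists. Of 18 genes of other secreted milk proteins, 15 were tested, with 10 higher and 5 lower estimates in aged MFP, a median of 0.42 and 0 called by edgeR. DESeq2 placed 2 above the young level and 0 below it, beside 3.03% and 0.642% of all its genes. Both young samples were above both aged samples for 2 of the 15 and below them for 5, beside 22.8% and 23.3% of all genes tested. Egf (epidermal growth factor) was at 12.2 and 18.5 CPM in the aged and 7.08 CPM in each young sample, whereas Lyz2 (a lysozyme, also of macrophages) was at 374 CPM in young replicate 1 and from 45.9 to 119 CPM in the others. Of 15 genes of milk fat and lactose, 14 were tested, with 11 higher and 3 lower estimates. Their median was 0.27, and edgeR called 0. DESeq2 called 3 higher and 0 lower, beside 3.03% and 0.642% of all its genes. Here 2 of the 14 had both young samples above both aged samples and 6 had them below. These orders held for 22.8% and 23.3% of all genes tested. Fabp3, a fatty acid binding protein of muscle and gland, was at 23.3 and 5.71 CPM in aged MFP against 1.46 and 0.989 CPM in young MFP, and Ugp2, which makes UDP-glucose, at 157 and 230 CPM in aged MFP against 89.8 and 95.8 CPM in young MFP. The muscle genes were also higher in both aged samples, and their part in these values was not tested.

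Markers of the other cells of the gland and of nearby tissues were given no call by edgeR. Of the 10 basal epithelial genes, 7 had a higher and 3 a lower estimate in aged MFP (median 0.33), with Krt5 at 74.9 and 86.2 CPM in aged MFP against 12.1 and 50.8 CPM in young MFP. Of the 12 genes of epidermis and of sweat or salivary gland, 6 had enough counts to be tested, and Krt1 (a keratin of the epidermis) and Dmkn were at 0.342 CPM or less in every sample. Others of these 6 were higher, with Sbsn from 6.01 to 9.25 CPM and Amy1, an amylase, at 193 and 168 CPM in aged MFP against 108 and 94.8 CPM in young MFP. Amy1 was the 1 gene of the list that DESeq2 called (higher in aged MFP, adjusted p = 0.0107, beside 0.37 from edgeR). DESeq2 called 3.03% of all its genes in that direction. Krt2 and Pip had 0 counts in every sample, and the list summed to 205 and 180 CPM in aged MFP against 118 and 106 CPM in young MFP. Dsc3, an adhesion protein of stratified epithelia on the basal list, was at 34.4 CPM in young replicate 1 and at most 1.69 CPM elsewhere. Among luminal genes, Ehf, an epithelial transcription factor, was at 75.1 and 64.9 CPM in aged MFP against 21.2 and 58.5 CPM in young MFP, and Cldn4, a tight junction protein, ranged from 54.9 to 125 CPM with overlap. The 6 genes of the casein neighbourhood found in the table (of 7 listed), among them Odam, had 9 counts or fewer in every sample, and none was tested.

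The genes with the profile most like that of the milk proteins were sought by distance. The measure was the Euclidean distance between centred log2 CPM values over the 4 samples, taken to the mean profile of Csn1s1, Csn2, Csn3 and Lalba. The 10 nearest genes, at distances from 0.301 to 0.638, were Mir431, Gm8307, Egr2, Plekhg4, Rian, 9530036M11Rik, Mirg, Defb15, Ceacam20 and Prkg2. Of these, Mir431, Gm8307, 9530036M11Rik, Defb15 and Ceacam20 had 58 counts or fewer in every sample. The non-coding genes Mir431, Rian and Mirg are neighbours on chromosome 12 (109590447 to 109749460). Rian was at 10.1 and 10.3 CPM in aged MFP against 27.5 and 81.8 CPM in young MFP, and Egr2, a transcription factor induced by growth signals, at 5.34 and 4.42 CPM in aged MFP against 21.8 and 42.9 CPM in young MFP. The 5 genes nearest to Glycam1 lay farther away, at distances from 4.00 to 4.84, and were Insm1, Apol7c, Gm8221, Ccl22 and Ccr7. Ccr7, the receptor that guides lymphocytes and dendritic cells into lymph nodes, reached 105 CPM in young replicate 1 and 3.03 CPM or less in the others. With 4 samples many genes share any order, and no gene of either set was called by edgeR.

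**Figure D4:**
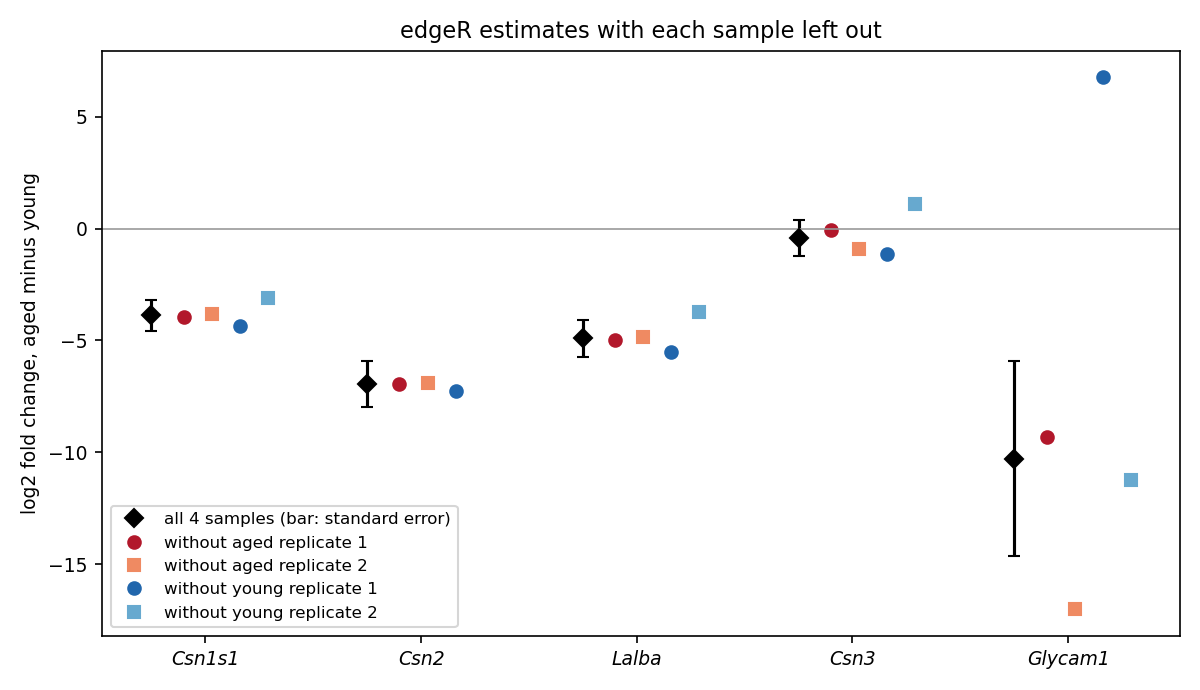
Log2 fold change of aged over young MFP from edgeR for the 5 milk protein genes tested, with all 4 samples (diamonds, bars are standard errors) and with each sample left out (coloured points). Csn1s1, Csn2 and Lalba lie at -3.11 or lower in each fit that could be made. These 3 genes passed the filter on low counts through the young samples only, so a negative value was required of them. Csn3 crosses 0 without young replicate 2, and Glycam1 reaches 6.76 without young replicate 1. The fitted values of Csn2 and Glycam1 depend on the prior count.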

How the data were processed

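Total RNA of whole MFP was sequenced after depletion of ribosomal RNA with a strand-specific kit. The values are raw gene counts that the authors deposited without normalization, with a column for each sample. The submitters' processing notes name featureCounts, R 3.6.1 and the builds GRCm38 and hg38. The aligner, annotation release and strand setting are not given in the sources used here. Age and replicate number were read from the sample titles. The titles state no pairing of same-numbered samples. The samples of an age are called biological replicates, with no animals named, and p-values measure the spread between these samples.

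After filterByExpr, which kept 22485 genes, libraries were scaled by TMM. Age was the only term in glmQLFit and glmQLFTest (edgeR 4.0.16 in R 4.3.3) at a Benjamini-Hochberg adjusted p of 0.05, with DESeq2 1.42.0 as an alternative. The methods of the study name DESeq2. The standard error (SE) is the log2 fold change divided by the square root of F. CPM use library totals times TMM factors, and log2 CPM a prior count of 2. Ratios of pooled counts have exact conditional binomial intervals and shares have Wilson intervals, both at 95%. Coordinates and exons are from GENCODE M21 and promoter windows from RefSeq.

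The members and gene lists were chosen with earlier results of these data known. Named are the 8 members, the 2 genes with the largest absolute fold change of each list, the nearest profiles and Krt8, Krt18, Epcam, Elf5, Stat5a and Prlr. Chst4, Odam, Gcnt1, Ackr1, Enpp2, Sele, Selp, Ccl21a, Amy1, Sbsn, Krt2 and Pip were named after their values were seen. Alternatives were scaling, filter, threshold, DESeq2, a replicate block and leaving out each sample.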

Additional observations from a re-analysis of the deposited data

How the results depend on the processing

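The quasi-likelihood test of edgeR called 0 of all genes and 0 milk protein genes with RLE, upper quartile or total count scaling, without a filter, with at least 10 counts in every sample, at an adjusted p of 0.1 and with each sample left out (0 to 0). At an unadjusted p under 0.05 it had 2371 of all genes and 3 members. DESeq2 called 845 genes and 2 members. Under a block for the replicate number, edgeR called 0 genes and 0 members, the estimate of Csn3 was -0.09 and that of Glycam1 -5.62, and same-numbered samples deviated from their age means with a correlation of -0.48 across genes. With the crossed block, chosen after seeing the data, 0 genes and 0 members were called. With each sample left out, the log2 fold change ran from -4.37 to -3.11 for Csn1s1, from -7.24 to -6.91 for Csn2, from -5.54 to -3.74 for Lalba, from -1.14 to 1.09 for Csn3 and from -17.01 to 6.76 for Glycam1. The sign for Csn1s1, Csn2 and Lalba was required by the filter, which they passed through the young samples only. The 2 reversals were Csn3 without young replicate 2 (1.09) and Glycam1 without young replicate 1 (6.76), each the library with that gene's highest value. With at least 10 counts in every sample only Csn3 could be tested, and Csn2 was not tested without young replicate 2. An age left with 1 sample is assumed to vary like the other. Depth limits Csn1s2a, Csn1s2b and Wap, which have 7 counts or fewer, and any aged level of Csn2.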
